A study of Mus musculus with 7 samples.

Results

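The genes of prostaglandin synthesis, signalling and breakdown were examined in mouse ovary, as 10 named genes out of the 55487 gene identifiers counted: Pla2g4a, Ptgs1, Ptgs2, Ptges, Ptges2, Ptges3, Ptgis, Ptger2, Ptger4 and Hpgd. They were taken by name, as the GENCODE M21 annotation (mm10) gives it, each matched 1 identifier, and all 10 were counted deeply enough to be tested. Ovaries of 3 CNTR and 4 PAMH F3 females were compared, C57BL/6J mice sampled on postnatal day 60 at diestrus. CNTR females were born to dams that received PBS, and PAMH F3 females descended from dams that received human anti-Müllerian hormone (AMH) at 0.12 mg/kg/day, in each case from E16.5 to E18.5 of gestation. The sample descriptions give the injections as subcutaneous and the study's methods as intraperitoneal. PAMH females were mated with unrelated PAMH males over the intervening generations with no further AMH, so that the PAMH F3 females themselves received none. Because the CNTR females were the offspring of injected dams, ancestral treatment and generation cannot be told apart in this comparison, and the labels do not say which females shared a litter.

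Prostaglandins are lipid signals made on demand from arachidonic acid. A phospholipase releases the fatty acid from membranes, a cyclooxygenase converts it to an unstable endoperoxide, and terminal synthases turn that intermediate into prostaglandin E2, prostacyclin, prostaglandin D2 or prostaglandin F2α. The products leave the cell, act on G-protein-coupled receptors and are inactivated by a dehydrogenase. In the ovary, the surge of luteinizing hormone induces the inducible cyclooxygenase in granulosa cells of preovulatory follicles, prostaglandin E2 acts through the EP2 receptor in ovulation and cumulus expansion, and prostaglandin F2α acts on the corpus luteum.

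Each library held between 32158174 and 35485021 reads counted to genes. Levels are given as CPM after TMM normalization, which scales each library to its effective total. Markers of granulosa cells, luteal cells, oocytes, endothelium, smooth muscle and leukocytes were found in every library. Oxt of the luteal list had at most 3 counts in any library, and markers of oviduct epithelium (summed at 2653 to 6502 CPM) and of adipocytes (122.0 to 995.6 CPM) were present beside the ovarian ones. The summed level of every marker list overlapped between the groups, but a sum mostly follows its most abundant gene. The granulosa sum was mostly Inha (1318 to 2130 CPM). The RNA came from whole tissue, so fewer cells of a type and less RNA per cell cannot be told apart for any gene below. CNTR replicate 2 stood apart in base composition. The slope against GC content (per 10% of GC) was taken on log2 CPM less each gene's mean over all libraries. It was 0.322 in CNTR replicate 2 and -0.131 to 0.051 in the other libraries.

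No member of the set of 10 passed adjustment over all genes tested in edgeR, and their differences did not share a direction. In edgeR's quasi-likelihood test with 2 surrogate variables, Ptgs2 was the gene with higher counts in PAMH F3 at an unadjusted p under 0.05, and Ptges and Ptgs1 were the genes with lower counts. These 3 of 10 genes (30.0%) stood beside 1435 of all 18779 genes tested (7.64%), with 3.75% of all genes higher and 3.89% lower. After Benjamini-Hochberg adjustment the same test called 0 of 18779 genes (0.0%). DESeq2 with the same surrogate variables called 101 of 17413 genes (0.58%, with 0.264% higher in PAMH F3), Ptgs2 being the 1 called among the 10. Without surrogate variables, edgeR called 0 genes and DESeq2 called 6 (0.0178%), and at an unadjusted edgeR p under 0.05 Ptgs2 was again higher and Ptges lower, where 3.95% of all genes passed (1.11% higher and 2.84% lower). Ptges and Ptges2, 2 of the 10 genes, were lower in every PAMH F3 library than in any CNTR library, and such a separation held for 4.25% of all genes tested (1.85% higher and 2.4% lower). The median log2 fold change of the 10 genes was 0.013, against 0.0049 over all genes tested.

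**Figure D1:**
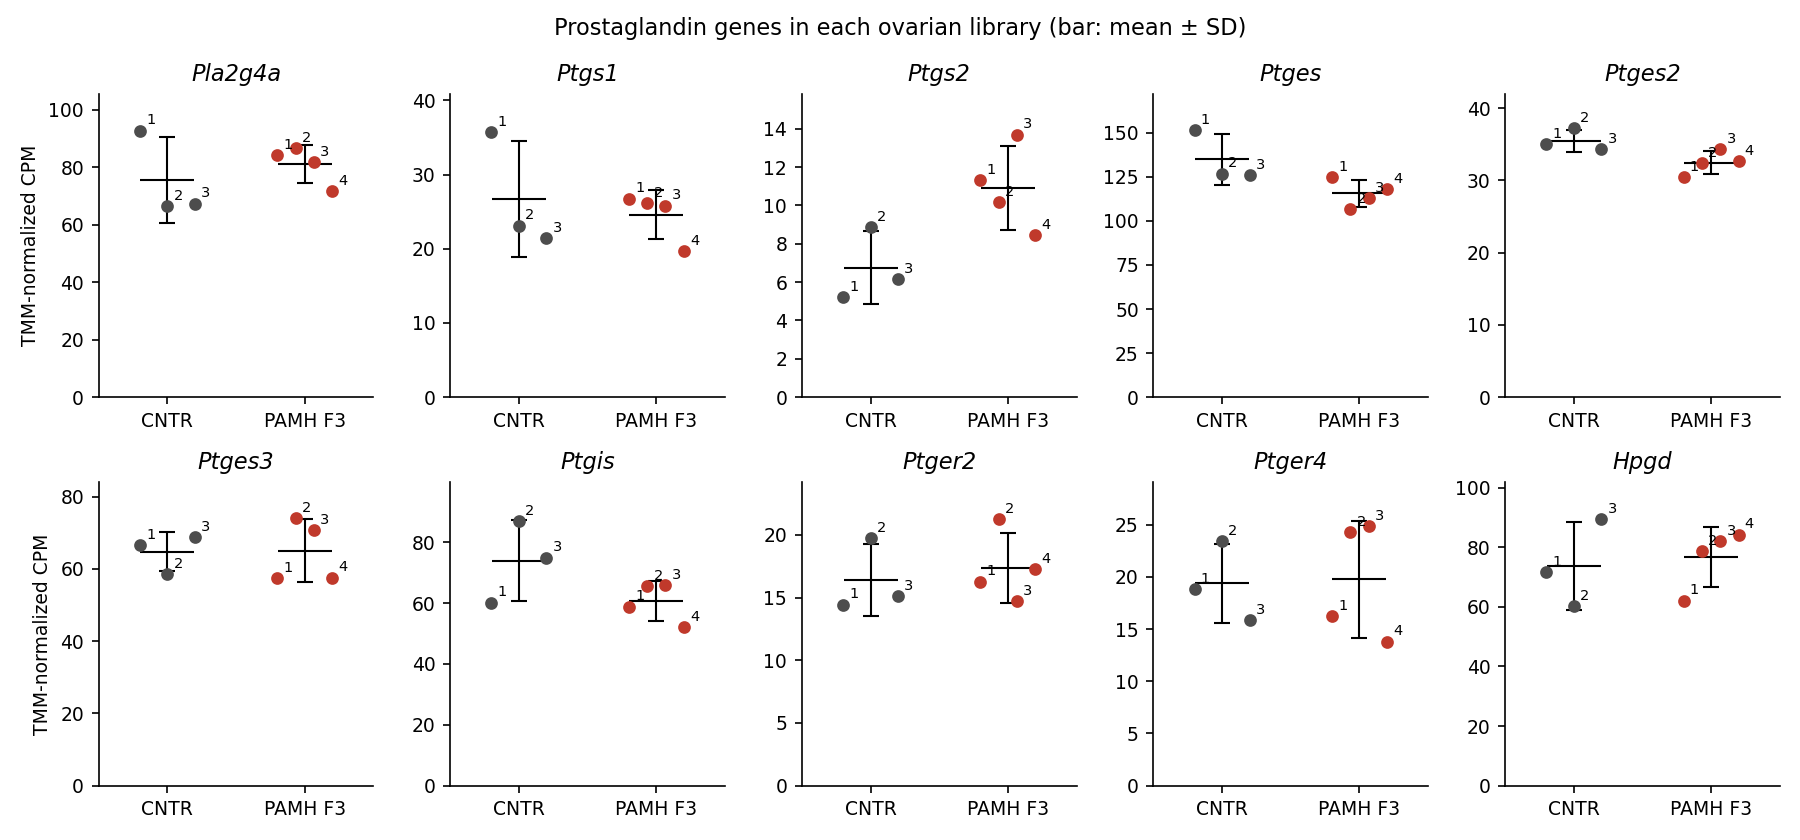
TMM-normalized CPM (vertical axes, each starting at 0) of the 10 prostaglandin genes in 3 CNTR (grey) and 4 PAMH F3 (red) ovarian libraries, with points numbered by replicate and bars giving the mean and SD. Ptgs2 lay at 5.213 to 8.881 CPM in CNTR and 8.466 to 13.70 CPM in PAMH F3, and Ptges and Ptges2 are the genes with every PAMH F3 library below every CNTR library.

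Pla2g4a (ENSMUSG00000056220, chr1:149829618-149961290, minus strand, mm10) encodes cytosolic phospholipase A2, which frees arachidonic acid from membrane phospholipids. It was at 92.73, 66.43 and 67.31 CPM in CNTR replicates 1 to 3 and at 84.10, 86.76, 81.88 and 71.74 CPM in PAMH F3 replicates 1 to 4. The highest and the lowest level were both in CNTR, so the PAMH F3 libraries lay inside the CNTR range. Means were 75.5 ± 14.9 CPM (SD, n = 3) and 81.1 ± 6.56 CPM (SD, n = 4). EdgeR's quasi-likelihood test gave 0.024 ± 0.068 (SE) on the log2 scale and an adjusted p of 0.966. Omitting CNTR replicate 1, the highest library, gave 0.29 with an unadjusted edgeR p of 0.00876. That fit had 3251 of 19094 genes at an unadjusted p under 0.05, against 1435 of 18779 with all libraries.

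Ptgs1 (ENSMUSG00000047250, chr2:36230426-36252272, plus strand) encodes the constitutive cyclooxygenase, COX-1, and Ptgs2 (ENSMUSG00000032487, chr1:150100031-150108227, plus strand) the inducible one, COX-2. The 250 bases before their starts are printed because the enzymes catalyse the same step and yet differ in how they are induced. Sequences are those of RefSeq on GRCm38.p6, 5′ to 3′ on the gene's strand, with matches to the motifs named below in capitals. The stretch just after the Ptgs2 start holds its remaining matches and is given separately.
Ptgs2, chr1:150099781-150100030: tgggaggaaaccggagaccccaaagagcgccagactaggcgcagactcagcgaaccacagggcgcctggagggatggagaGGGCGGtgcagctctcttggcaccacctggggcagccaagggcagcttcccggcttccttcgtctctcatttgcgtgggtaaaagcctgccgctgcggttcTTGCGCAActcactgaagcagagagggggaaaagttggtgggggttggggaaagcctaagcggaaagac
Ptgs2, chr1:150100035-150100058: tcaccactaCGTCACGTGgagtcc
Ptgs1, chr2:36230176-36230425: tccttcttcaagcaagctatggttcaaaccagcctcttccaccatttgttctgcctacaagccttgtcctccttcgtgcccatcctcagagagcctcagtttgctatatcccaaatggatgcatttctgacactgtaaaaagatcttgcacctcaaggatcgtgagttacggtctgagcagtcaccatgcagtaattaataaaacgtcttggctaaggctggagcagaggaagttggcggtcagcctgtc

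The windows searched ran from 250 bases before to 50 bases after each annotated RefSeq start and were read on both strands. Where transcription starts in these ovaries was not measured, so positions hold for the annotated start only. Ptgs2 held a GC box (GGGCGG) 170 bases before its start and a C/EBP-like element (TTNNGCAA, here TTGCGCAA) 69 bases before it. The core of the cyclic AMP response element (TGACG, read here on the other strand as CGTCA) began at base 14 after the start, and an E-box (CACGTG) began at base 17, the last pair sharing 2 bases. The Ptgs1 window matched none of these motifs, nor the TATA box (TATAAA) or the CCAAT box, which says only that these letters are not in that window. Over all 32817 RefSeq windows of the same length, 35.6% held the GC box, 10.8% the C/EBP-like element, 20.8% the response element core, 7.15% the E-box, 13.6% the TATA box and 37.4% the CCAAT box. These matches describe the sequence and are not evidence of binding.

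Ptgs2 had the largest fold change of the 10 genes, and its libraries were the most shallowly counted. CNTR replicates 1 to 3 had 173, 296 and 199 counts, which is 5.213, 8.881 and 6.159 CPM. PAMH F3 replicates 1 to 4 had 400, 338, 491 and 270 counts, which is 11.33, 10.18, 13.70 and 8.466 CPM. The 3 highest libraries were PAMH F3 and the 2 lowest were CNTR, but the groups overlapped because CNTR replicate 2 lay above PAMH F3 replicate 4. The mean of 10.9 ± 2.20 CPM (SD, n = 4) in PAMH F3 was 1.62 times the CNTR mean of 6.75 ± 1.90 CPM (SD, n = 3).

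In edgeR, Ptgs2 had a log2 fold change of 0.86 ± 0.15 (SE), with an unadjusted p of 0.000718 that ranked 35 of 18779 genes and an adjusted p of 0.365 by the quasi-likelihood test. DESeq2 with the same surrogate variables gave the same fold change, 0.86 ± 0.18 (SE), with an adjusted p of 0.00158. Without surrogate variables the fold change was 0.69 ± 0.22 (SE) in edgeR and the adjusted p was 0.997 in edgeR and 0.91 in DESeq2. The fold change went from 0.86 to 0.57 on the log2 scale without CNTR replicate 1, the library with the least Ptgs2. A correction for GC content and length, fitted without surrogate variables, gave 0.60 with an unadjusted edgeR p of 0.0617, to be set beside the 0.69 without surrogate variables alone. Among PAMH F3 libraries, the summed oviduct epithelium list was highest in replicate 3 (6502 CPM) and lowest in replicate 4 (2653 CPM), as Ptgs2 was. In CNTR that sum was highest in replicate 1 (5379 CPM), where Ptgs2 was lowest. Most of the sum was Ovgp1. Within CNTR, Foxj1 (141.9 CPM) was highest in replicate 2, as Ptgs2 was, and Ccdc153 (164.0 CPM) in replicate 1. Dynlrb2 was nearly equal in CNTR replicates 1 and 2 (45.44 and 45.81 CPM). The part of the oviduct epithelium in the Ptgs2 result was not tested. Of the 6 granulosa markers, 1 was higher and 2 were lower in PAMH F3 at an unadjusted edgeR p under 0.05. Over all genes tested 3.75% were higher and 3.89% lower at that p. The log2 fold changes were 0.58 for Inhbb, -0.25 for Foxl2 and -0.34 for Amh, and each gene overlapped between the groups. Without surrogate variables they were 0.55, -0.42 and -0.40, and with the GC and length correction as well 0.74, -0.15 and -0.0003. With that correction the unadjusted edgeR p was 0.0308 for Inhbb, 0.142 for Foxl2 and 0.999 for Amh. EdgeR called 0 of the 6 after adjustment, and DESeq2 with the same surrogate variables called Inhbb. The part of granulosa cells in the Ptgs2 result was not tested either.

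**Figure D2:**
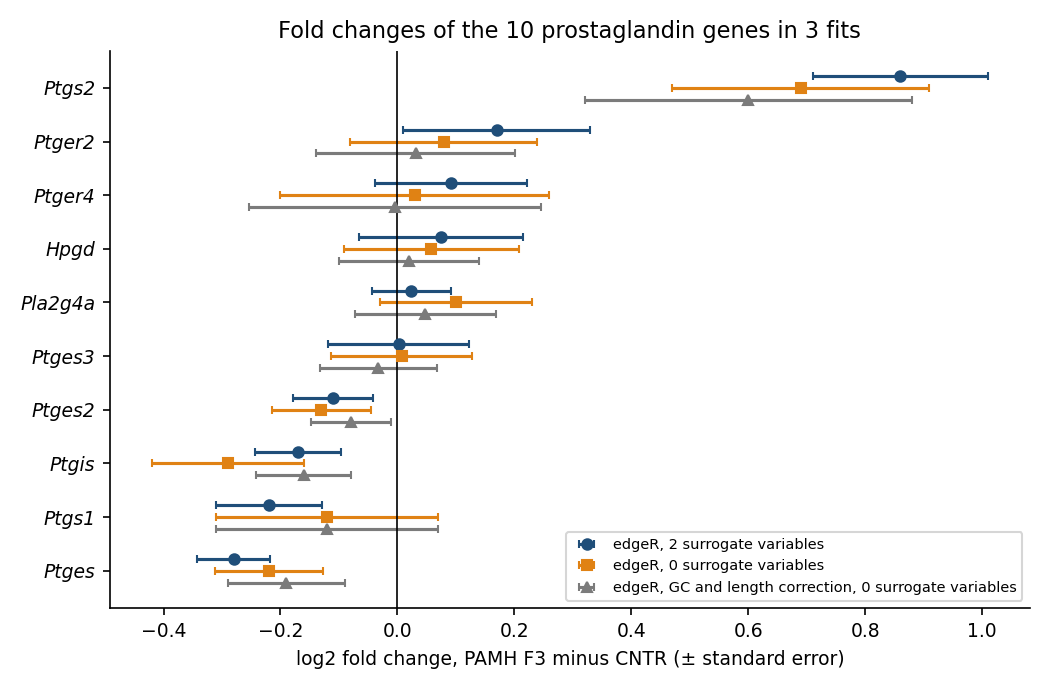
Log2 fold change of PAMH F3 over CNTR (horizontal axis) with its standard error for the 10 prostaglandin genes, from edgeR with 2 surrogate variables (blue circles), with 0 (orange squares) and with a GC and length correction and 0 surrogate variables (grey triangles). Ptgs2 lies to the right of 0 in all 3 fits, at 0.86, 0.69 and 0.60, and Ptges, Ptgs1, Ptgis and Ptges2 lie to the left in all 3.

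The antisense transcripts annotated beside Ptgs2 were nearly absent. Ptgs2os, whose annotated start lies 68 bases before that of Ptgs2 on the other strand, had between 0 and 5 counts per library, and Ptgs2os2 had between 0 and 3. Pla2g4a lies next to Ptgs2, with 139.0 kb between the gene bodies, and did not share its pattern, since its lowest CNTR library was the highest CNTR library for Ptgs2.

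Ptgs1 was at 35.71, 23.13 and 21.42 CPM in CNTR replicates 1 to 3 and at 26.75, 26.17, 25.83 and 19.72 CPM in PAMH F3 replicates 1 to 4. CNTR replicate 1 stood above every other library, and the others ran from 19.72 CPM in PAMH F3 replicate 4 to 26.75 CPM in PAMH F3 replicate 1. Means were 26.8 ± 7.80 CPM (SD, n = 3) and 24.6 ± 3.29 CPM (SD, n = 4). The log2 fold change was -0.22 ± 0.091 (SE), with an unadjusted p of 0.045 and an adjusted p of 0.646 in edgeR's quasi-likelihood test. It was -0.12 without surrogate variables, where the unadjusted edgeR p was 0.539, and 0.16 without CNTR replicate 1, so its direction rested on that library. The adipocyte marker list was likewise highest in CNTR replicate 1 (995.6 CPM) and lowest in PAMH F3 replicate 4 (122 CPM), with the other libraries between 258.1 and 713.5 CPM, and its part in the Ptgs1 values was not tested.

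The balance of the cyclooxygenases was read as the ratio of their levels per kilobase of exon. Ptgs2 over Ptgs1 was 0.124, 0.326 and 0.244 in CNTR replicates 1 to 3 and 0.359, 0.33, 0.45 and 0.364 in PAMH F3 replicates 1 to 4. Ptgs2 was thus below Ptgs1 in every library, and every PAMH F3 ratio was above every CNTR ratio, although the nearest pair, 0.326 and 0.33, were almost the same. The ratio carries the CNTR replicate 1 values of both genes, the highest Ptgs1 and the lowest Ptgs2 of all 7 libraries.

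Ptges (ENSMUSG00000050737, chr2:30889471-30929863, minus strand) encodes the membrane-bound, inducible prostaglandin E synthase that is coupled to COX-2. The 250 bases before its RefSeq start are shown because Ptges is coupled to Ptgs2 and can be compared with it. GC boxes in capitals lie 53 and 42 bases before that start, which is inside the longer gene body of GENCODE, and no other motif of the search matched its window.
Ptges, chr2:30903298-30903547: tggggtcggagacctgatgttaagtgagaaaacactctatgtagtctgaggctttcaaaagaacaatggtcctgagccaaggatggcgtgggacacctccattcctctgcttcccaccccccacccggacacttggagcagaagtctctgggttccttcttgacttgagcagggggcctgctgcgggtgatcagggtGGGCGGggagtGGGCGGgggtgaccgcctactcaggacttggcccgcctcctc

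Ptges was at 151.6, 126.8 and 126.2 CPM in CNTR replicates 1 to 3 and at 124.7, 106.7, 112.9 and 118.1 CPM in PAMH F3 replicates 1 to 4. Every PAMH F3 library was below every CNTR library, and the nearest libraries were PAMH F3 replicate 1 and CNTR replicate 3. The PAMH F3 mean of 116.0 ± 7.65 CPM (SD, n = 4) was 0.857 times the CNTR mean of 135.0 ± 14.5 CPM (SD, n = 3). This was a log2 fold change of -0.28 ± 0.062 (SE), with an unadjusted p of 0.00245, rank 90 of all genes tested, and an adjusted p of 0.511 in edgeR's quasi-likelihood test. DESeq2 gave an adjusted p of 0.0987 with the same surrogate variables and 0.998 without them. In edgeR the fold change without surrogate variables was -0.22 (unadjusted p of 0.0385), and -0.19 (0.0996) with the GC and length correction. With surrogate variables kept, the fold change was -0.13 without CNTR replicate 1, the library with the most Ptges (unadjusted edgeR p of 0.126). In direction Ptges was opposite to Ptgs2, the cyclooxygenase whose product it uses.

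Ptges2 (ENSMUSG00000026820, chr2:32395896-32405772, plus strand) encodes a second membrane-associated prostaglandin E synthase. It varied least of the 10 genes, at 34.99, 37.20 and 34.32 CPM in CNTR and 30.49, 32.43, 34.31 and 32.64 CPM in PAMH F3. No PAMH F3 library reached a CNTR library, but the nearest of them, 34.31 and 34.32 CPM, were almost the same. Means were 35.5 ± 1.51 CPM (SD, n = 3) and 32.5 ± 1.56 CPM (SD, n = 4), and the log2 fold change of -0.11 ± 0.068 (SE) had an adjusted p of 0.764 in edgeR's quasi-likelihood test.

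Ptges3 (ENSMUSG00000071072, chr10:128058954-128077272, plus strand) encodes the cytosolic prostaglandin E synthase, also known as the HSP90 co-chaperone p23. Its levels were 66.69, 58.63 and 68.83 CPM in CNTR and 57.55, 74.17, 70.77 and 57.63 CPM in PAMH F3, where the replicates fell into a higher and a lower pair around the CNTR values. The means, 64.7 ± 5.38 CPM (SD, n = 3) and 65.0 ± 8.70 CPM (SD, n = 4), were nearly equal. The log2 fold change was 0.0021 ± 0.12 (SE), with an adjusted p of 0.998 in edgeR's quasi-likelihood test. A processed pseudogene of Ptges3 is annotated, so reads that match both copies would not have been counted to either.

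Ptgis (ENSMUSG00000017969, chr2:167191805-167240604, minus strand) encodes prostacyclin synthase, a cytochrome P450 enzyme of vascular and stromal cells. It was at 60.15, 86.80 and 74.93 CPM in CNTR and at 58.80, 65.59, 65.89 and 51.99 CPM in PAMH F3. The PAMH F3 libraries were below CNTR replicates 2 and 3, while CNTR replicate 1 lay among them. Means were 74.0 ± 13.4 CPM (SD, n = 3) and 60.6 ± 6.59 CPM (SD, n = 4). The log2 fold change was -0.17 ± 0.073 (SE) with an unadjusted p of 0.0555 and an adjusted p of 0.664 in edgeR's quasi-likelihood test, and -0.29 without surrogate variables. Omitting CNTR replicate 1 gave -0.40 (unadjusted edgeR p of 0.000657, adjusted p of 0.0654). That fit had 3251 of 19094 genes at an unadjusted p under 0.05, against 1435 of 18779 with all libraries. Omitting PAMH F3 replicate 4 gave -0.084. Summed smooth muscle markers were likewise lowest in PAMH F3 replicate 4 (1096 CPM) and highest in CNTR replicate 2 (1946 CPM), with 0 of 4 genes at an unadjusted p under 0.05. Of the endothelial list 2 of 5 genes were lower at that p, against 3.89% of all genes tested. These were Pecam1 with a log2 fold change of -0.44 (unadjusted edgeR p of 0.0046) and Emcn with -0.21 (0.0223). The endothelial list summed to 214.4 to 260.2 CPM in CNTR and 181.3 to 264.5 CPM in PAMH F3. The part of these cells in the Ptgis values was not tested.

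The receptors for prostaglandin E2 that signal through cyclic AMP showed no difference beyond the spread between mice. Ptger2 (ENSMUSG00000037759, chr14:44988195-45003820, plus strand), the EP2 receptor of cumulus expansion, was at 14.43, 19.71 and 15.13 CPM in CNTR and 16.27, 21.23, 14.70 and 17.25 CPM in PAMH F3. Ptger4 (ENSMUSG00000039942, chr15:5206661-5244187, minus strand), the EP4 receptor, was at 18.86, 23.43 and 15.88 CPM in CNTR and 16.24, 24.27, 24.86 and 13.80 CPM in PAMH F3. Both receptors had their highest and lowest PAMH F3 libraries on either side of the CNTR mean. In edgeR's quasi-likelihood test the log2 fold changes were 0.17 ± 0.16 (SE) for Ptger2, with an adjusted p of 0.844, and 0.092 ± 0.13 (SE) for Ptger4, with an adjusted p of 0.901. Ptger2 went to 0.30 without PAMH F3 replicate 3 and to -0.0053 without CNTR replicate 1. Ptger4 overlaps Ttc33, a gene on the other strand with up to 1496 counts in a library, and the strand setting of the counting is not given in the sources used here, so reads of the pair cannot be told apart with certainty. Per kilobase of exon, Ptger2 over Ptger4 was between 0.98 and 1.22 in CNTR and between 0.757 and 1.60 in PAMH F3.

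Hpgd (ENSMUSG00000031613, chr8:56294585-56321043, plus strand) encodes the 15-hydroxyprostaglandin dehydrogenase that inactivates prostaglandins. It was at 71.54, 60.22 and 89.44 CPM in CNTR and at 62.09, 78.75, 81.96 and 84.22 CPM in PAMH F3. The highest and the lowest library were both CNTR, and 3 of the 4 PAMH F3 libraries lay close together above the CNTR mean. Means were 73.7 ± 14.7 CPM (SD, n = 3) and 76.8 ± 10.0 CPM (SD, n = 4), and the log2 fold change of 0.075 ± 0.14 (SE) had an adjusted p of 0.936 in edgeR's quasi-likelihood test. Ptges over Hpgd, the inducible synthase against the dehydrogenase, was 0.604 to 0.907 in CNTR and 0.58 to 0.86 in PAMH F3 per kilobase of exon, and the groups overlapped.

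Levels between the genes were compared per kilobase of the gene's merged exons, over all 7 libraries. By the mean, the breakdown enzyme stood first and the inducible cyclooxygenase last. Hpgd was at 44.8 CPM per kb, followed by Ptges (31.5), Ptges3 (29.3) and Ptgis (25.8), whose ranges over libraries overlapped from each to the next. Pla2g4a followed at 12.3 CPM per kb, apart from its neighbours. Ptges2 (6.68) and Ptgs1 (6.57 CPM per kb) could not be ordered by their ranges, nor could Ptger2 (3.27), Ptger4 (2.95) and Ptgs2 (1.99 CPM per kb). When the median transcript length replaced the merged exons, only 2 of the 10 genes kept their rank, Ptges came first, and Ptgs2, Ptger2 and Ptger4 were again the lowest.

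**Figure D3:**
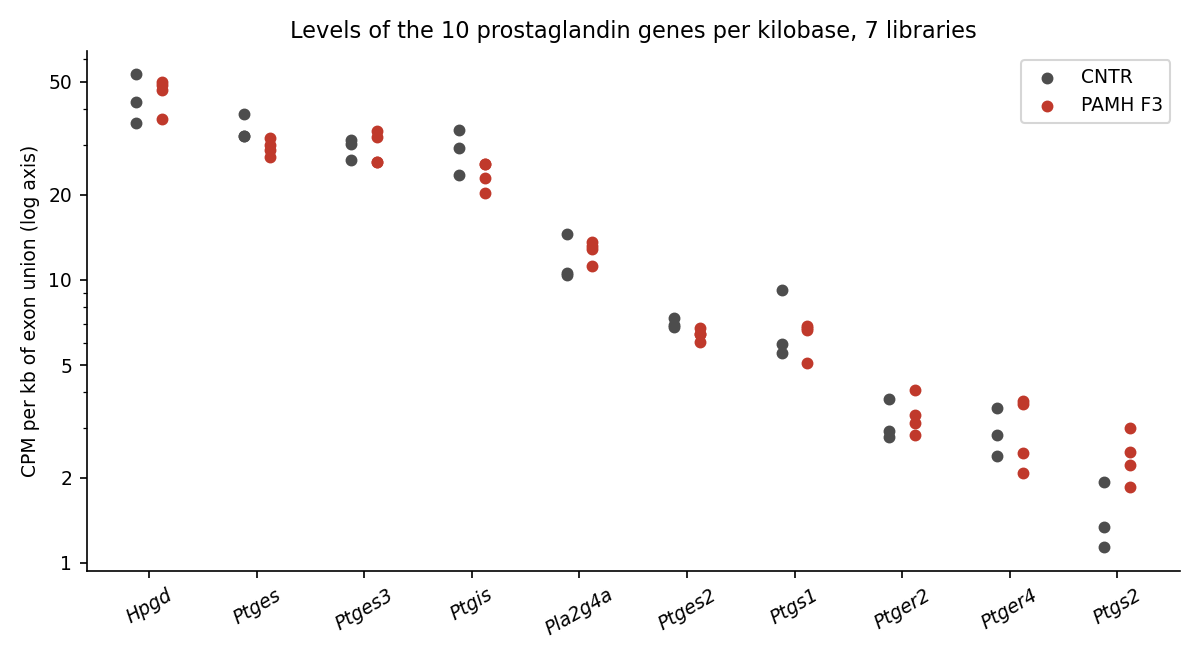
CPM per kilobase of merged exons (vertical logarithmic axis) for the 10 prostaglandin genes in 3 CNTR (grey) and 4 PAMH F3 (red) libraries, ordered by the mean over all 7. Hpgd (35.8 to 53.1) is highest and Ptgs2 (1.14 to 2.99) lowest, with gaps on either side of Pla2g4a and between Ptgs1 and Ptger2.

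The 10 genes did not move together from mouse to mouse. Pearson correlations of log2 CPM were computed for all 45 pairs over the 7 libraries, 22 of which were positive, with a median r of -0.01. Ptgs1 and Pla2g4a had the strongest relation, with r of 0.85 (exact permutation p = 0.00833, adjusted p = 0.375 over 45 pairs) and Spearman's rho of 0.82 (exact permutation p = 0.0341), and r was 0.93 without the 2 libraries farthest from the median of Ptgs1. Ptgs2 and Ptges ran in opposite directions, with r of -0.76 (exact permutation p = 0.0419, adjusted p = 0.924) and rho of -0.68 (exact permutation p = 0.11). Without the 2 libraries farthest from the median of Ptgs2, r was -0.36. Dropping them also narrows the range of Ptgs2, so this value cannot show whether the relation rested on them. No pair passed adjustment. These correlations pool both groups, each too small for a value of its own.

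Among the 18778 other genes tested, those whose log2 CPM followed Ptgs2 most closely over the 7 libraries were Acap2 (r = 0.983), Usp6nl (r = 0.975), Mgam (r = 0.968), Adra2a (r = 0.963) and Fbxo7 (r = 0.957). Adra2a, an adrenergic receptor, was at 2.14, 3.60 and 2.60 CPM in CNTR and at 3.939, 3.614, 4.659 and 3.794 CPM in PAMH F3, and Usp6nl, a GTPase-activating protein for Rab proteins, was also higher in every PAMH F3 library. Acap2, Mgam and Fbxo7 overlapped between the groups. The genes were picked as the top of many over 7 libraries that share their depth and composition, so these values are a description.

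The other genes of the pathway were taken from a list of 51 genes, 47 of which were tested. In edgeR's quasi-likelihood test 0 passed adjustment, 1 was higher and 3 were lower in PAMH F3 at an unadjusted p under 0.05 (8.51%, against 7.64% of all genes tested), and the median log2 fold change was -0.056. DESeq2 called 0 of them. By role, the counts higher and lower at that p were 0 and 2 of 6 for other prostanoid synthases and reductases, 0 and 1 of 6 tested for other prostanoid receptors, 1 and 0 of 9 for the leukotriene and lipoxygenase branch, and 0 and 0 for 5 genes of transport and breakdown, 11 phospholipases A2 and 10 ovulatory genes downstream of luteinizing hormone and prostaglandin E2. The receptors not among the 10 genes had a median log2 fold change of -0.28 with 5 of 6 below 0, and the ovulatory genes had a median of -0.053 with 5 of 10 below 0. Ptgdr, with between 1 and 7 counts per library, was the receptor too low to test.

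**Figure D4:**
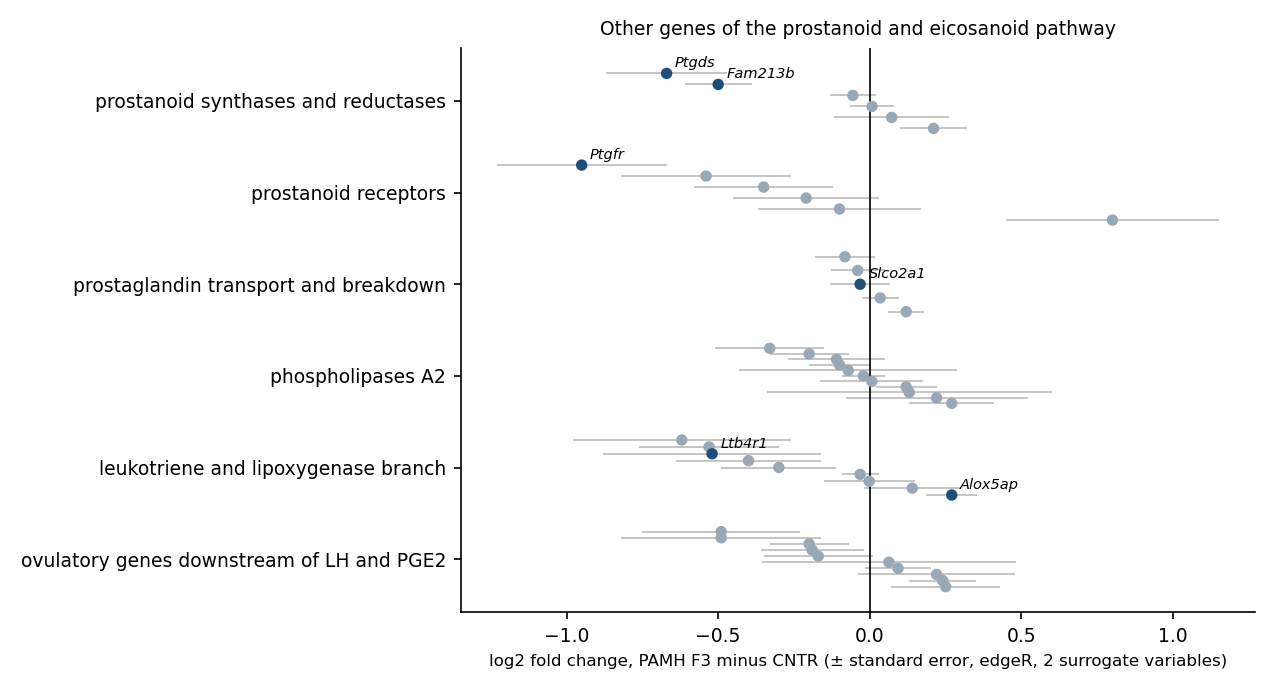
Log2 fold change of PAMH F3 over CNTR with its standard error (horizontal axis; edgeR, 2 surrogate variables) for the 47 other prostanoid and eicosanoid genes tested, grouped by role, with named genes in dark blue. Ptgfr at -0.95, Ptgds at -0.67 and Fam213b at -0.50 lie to the left of 0 and Alox5ap at 0.27 to the right.

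Ptgfr (ENSMUSG00000028036, chr3:151796502-151837630), the receptor for prostaglandin F2α on luteal cells, was the prostanoid receptor with by far the highest level, at 71.8 CPM per kb against 3.27 for Ptger2 and 2.95 for Ptger4. It was at 577.1, 515.5 and 883.3 CPM in CNTR and at 593.3, 302.4, 227.0 and 309.2 CPM in PAMH F3. Replicate 1 of PAMH F3 lay within the CNTR range, and the other 3 PAMH F3 libraries were below every CNTR library. Means were 659 ± 197 CPM (SD, n = 3) and 358 ± 161 CPM (SD, n = 4). The log2 fold change was -0.95 ± 0.28 (SE), with an unadjusted p of 0.0105 and an adjusted p of 0.54 in edgeR's quasi-likelihood test. Leaving out PAMH F3 replicate 1 gave -1.19 with an adjusted edgeR p of 0.0208, but -1.24 with an adjusted p of 0.329 without surrogate variables. With surrogate variables, edgeR called 37 of 18572 genes without that library and 0 of 18779 with all libraries. Leaving out CNTR replicate 3 gave -0.82 with an unadjusted edgeR p of 0.061, or -0.61 with 0.0909 without surrogate variables.

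Markers of luteal cells, where Ptgfr is known to act, were read beside it. Prlr, the prolactin receptor, was at 561.9, 429.5 and 678.8 CPM in CNTR and at 620.8, 378.6, 352.6 and 506.1 CPM in PAMH F3, and edgeR's quasi-likelihood test gave it a log2 fold change of -0.36 and an unadjusted p of 0.0275. Like Ptgfr, Prlr was highest in PAMH F3 replicate 1 and lowest in replicate 3 within that group, and so was Lhcgr (501.7 and 308.1 CPM). Hsd3b1 was also lowest in replicate 3 (4253 CPM) but highest in replicate 4 (6086 CPM). Star and Akr1c18 of the same list were highest within PAMH F3 in replicate 3, at 582.7 and 557.5 CPM. The summed luteal list, mostly Hsd3b1, was at 5663 to 8104 CPM in CNTR and 5615 to 7878 CPM in PAMH F3. Of its 5 tested genes 1 had an unadjusted edgeR p under 0.05, against 7.64% of all genes tested, and Oxt was near 0. The part of luteal cells in the Ptgfr difference was not tested.

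Ptgds and Fam213b were the genes among the 6 other synthases and reductases that were lower in every PAMH F3 library than in any CNTR library, and the other 4 overlapped between the groups. Of the 47 genes tested on the wider list, 3 were lower without overlap and 0 were higher. Over all genes tested 2.4% were lower and 1.85% higher in this way. Ptgds (ENSMUSG00000015090, chr2:25466709-25470046), the lipocalin-type prostaglandin D synthase, was at 12.26, 13.44 and 11.64 CPM in CNTR and 10.37, 7.649, 7.616 and 5.832 CPM in PAMH F3. This gave a log2 fold change of -0.67 ± 0.20 (SE), with an unadjusted p of 0.0112 and an adjusted p of 0.54 in edgeR's quasi-likelihood test. Fam213b (ENSMUSG00000029059, chr4:154895504-154899135), also named Prxl2b, a peroxiredoxin-like prostaglandin F2α synthase, was at 17.24, 29.85 and 22 CPM in CNTR and 15.30, 14.30, 15.59 and 12.35 CPM in PAMH F3. This gave a log2 fold change of -0.50 ± 0.11 (SE), with an unadjusted p of 0.00288 and an adjusted p of 0.511 in the same test. It was -0.83 without CNTR replicate 1 and -0.41 without CNTR replicate 2. The PAMH F3 libraries were much closer to each other than the CNTR libraries were.

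**Figure D5:**
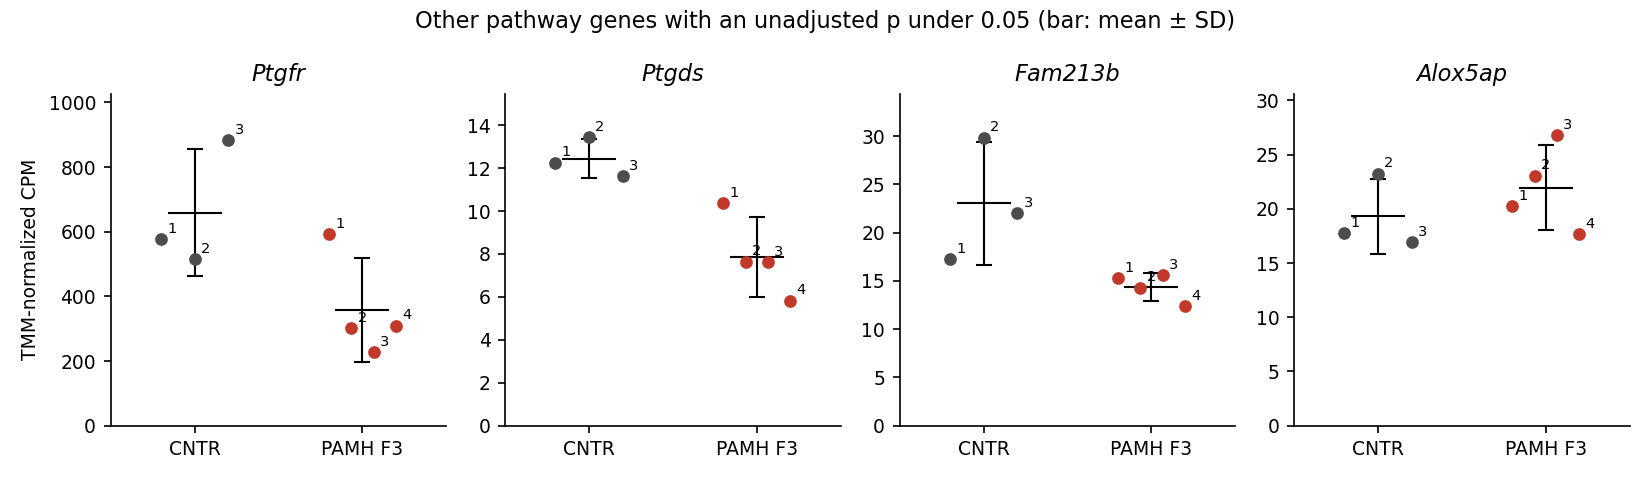
TMM-normalized CPM (vertical axes, each starting at 0) of Ptgfr, Ptgds, Fam213b and Alox5ap in 3 CNTR (grey) and 4 PAMH F3 (red) ovarian libraries, with points numbered by replicate and bars giving the mean and SD. Every PAMH F3 library is below every CNTR library for Ptgds and Fam213b, whereas Ptgfr and Alox5ap overlap.

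Alox5ap, which encodes the protein that presents arachidonic acid to 5-lipoxygenase for leukotriene synthesis, was at 17.75, 23.25 and 16.93 CPM in CNTR and 20.23, 23.07, 26.81 and 17.65 CPM in PAMH F3. The groups overlapped across most of their range, and the log2 fold change of 0.27 ± 0.084 (SE) had an unadjusted p of 0.0148 and an adjusted p of 0.56 in edgeR's quasi-likelihood test. Without surrogate variables it was 0.18, with an unadjusted p of 0.301, and omitting CNTR replicate 1 gave 0.15, with an unadjusted edgeR p of 0.114. The leukotriene B4 receptor Ltb4r1 had 15, 15 and 17 counts in CNTR and 7, 12, 11 and 14 counts in PAMH F3, so every PAMH F3 library was the lower one, and edgeR gave -0.52 ± 0.36 (SE) on the log2 scale and an unadjusted p of 0.189. Slco2a1, the prostaglandin transporter that takes up prostaglandins for breakdown, was at 131.4, 159.9 and 99.03 CPM in CNTR and 133.5, 125.7, 130.9 and 103.1 CPM in PAMH F3. All its PAMH F3 libraries lay within the CNTR range, with a log2 fold change of -0.032 ± 0.10 (SE) and an adjusted p of 0.969 in edgeR's quasi-likelihood test.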

How the data were processed

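Poly(A) RNA of 7 ovaries was prepared with a stranded kit and sequenced, with a library per sample. The authors aligned reads to mm10 with STAR 2.5.3a and counted them with HTSeq 0.6.1p1, after bcl2fastq 2.17.1.14, per the submitters' processing notes and the study's methods. They deposited raw counts per gene. The annotation release and the strand setting are not given in the sources used here. The 5 summary lines per library were left out of library sizes and tests: not uniquely aligned reads came to 37.7% to 40.7% of the sum of gene counts and summary lines, and reads outside genes to 5.82% to 7.37%.

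Of 55487 identifiers, 55394 matched GENCODE M21. The quasi-likelihood F test of edgeR 4.0.16 in R 4.3.3 was run on 18779 genes that passed filterByExpr at a minimum count of 10, with TMM factors from all gene rows, with 2 surrogate variables from svaseq (sva 3.50.0, number estimated with 20 permutations, at most 3), which left 3 residual degrees of freedom. P-values were two-sided and adjusted over all genes tested (Benjamini-Hochberg) and called at or below 0.05. They set the group difference against the variation between these libraries that remained after the surrogate variables were fitted. Correlations used CPM with 0.1 added before the logarithm. Tests were also run on simulated counts. These held no unwanted variation for surrogate variables to remove, so they do not check that part of the fit.

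Alternatives were DESeq2 1.42.0, 0, 1 or 3 surrogate variables, other size factors and filters, a GC and length correction, a replicate block and each library left out. Replicate numbers did not pair the samples. The 10 genes and all lists were chosen with earlier results of these data known. Named besides the 10 were listed genes with an unadjusted p under 0.05 or no overlap between groups, at most 12 in order of p, Ptgfr, Slco2a1 and Ptgds in any case, and the 5 genes most like Ptgs2. Promoter windows came from RefSeq (GRCm38.p6), where 9 of the 10 genes matched. Ptgis was not matched.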

Additional observations from a re-analysis of the deposited data

Results flagged for a closer look

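Of 16 named genes checked in the 4 PAMH F3 libraries, Ptgs1 had 1 library far from the others. PAMH F3 replicate 4 was at 19.72 CPM, and its gap to the nearest PAMH F3 library took 0.869 of the group's whole range, above Dixon's critical value for a group of 4. Chance gives about 1 such group in 20. CNTR replicates 2 and 3, at 23.13 and 21.42 CPM, lay inside the gap.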

How the results depend on the processing

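Of 16 named genes under up to 24 alternatives each, 9 kept the sign of their fold change wherever they were tested, namely Ptgs2, Ptges, Ptges2, Ptgis, Ptgfr, Ptgds, Fam213b, Alox5ap and Ltb4r1, and no alternative moved the median of all genes past 0.02 on the log2 scale. The number of genes called, 0 in edgeR, was 101 in DESeq2 with the same surrogate variables, 6 in DESeq2 without them and 8 without a filter on low counts. It ranged from 0 to 39 when a library was left out, with 39 when CNTR replicate 1 was omitted and 37 when PAMH F3 replicate 1 was, or 2 without the latter and without surrogate variables. DESeq2 called 1 of the 10 genes, Ptgs2, and leaving out libraries gave 0 to 1 calls on the wider list, the call being Ptgfr at -1.19 without PAMH F3 replicate 1. The cause of these changes was not tested. Replicate numbers did not pair the samples: deviations correlated at 0.096, 0.097 and -0.248, and 1 of 3 CNTR libraries correlated best with its own number. The replicate block was fitted without surrogate variables. EdgeR then called 0 genes, with 447 at an unadjusted p under 0.05 against 741 without the block, and the fold changes were 0.82 for Ptgs2 (0.69 without the block), 0.0096 for Ptgs1 (-0.12 without it) and 0.026 for Slco2a1 (-0.077 without it).

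With the GC and length correction, which was fitted without surrogate variables, Ptges3 was at -0.033 and Ptger4 at -0.0038, against 0.0071 and 0.03 without surrogate variables alone. When a library was left out with surrogate variables kept, Ptgs1 ranged from -0.28 to 0.16, Ptges3 from -0.073 to 0.11, Hpgd from -0.022 to 0.21, Pla2g4a from -0.037 to 0.29, Ptger2 from -0.0053 to 0.3, Ptger4 from 0.023 to 0.16 and Slco2a1 from -0.14 to 0.053. Without surrogate variables as well, the reversed values were Ptgs1 0.15, Ptges3 -0.059, -0.062 and -0.036, Hpgd -0.069, Ptger2 -0.003 and -0.032, Ptger4 -0.095, -0.083 and -0.1 and Slco2a1 0.1 and 0.0026. Ranking by median transcript length kept 2 of 10 ranks. Depth limited Ptgs2 (173 to 491 counts) and Ltb4r1 (7 to 17 counts) most, and 3 against 4 mice with 3 residual degrees of freedom left small differences undetectable.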

Other observations

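Alox15 and Hpgds, listed genes of the eicosanoid pathway chosen after their values were seen, varied widely between mice. Alox15, which encodes a lipoxygenase, was at 149.4, 136.1 and 75.89 CPM in CNTR and at 119.9, 160.6, 206.1 and 66.66 CPM in PAMH F3. Hpgds, which encodes the hematopoietic prostaglandin D synthase, was at 79.07, 104.0 and 59.30 CPM in CNTR and at 82.66, 97.84, 122.2 and 54.27 CPM in PAMH F3. In each gene PAMH F3 replicate 3 was the highest library and PAMH F3 replicate 4 the lowest, so the spread within PAMH F3 was wider than the difference between the groups. The oviduct epithelium marker list was also highest and lowest in these libraries. It summed to 5379, 4131 and 3059 CPM in CNTR and to 4184, 4695, 6502 and 2653 CPM in PAMH F3. Most of that sum was Ovgp1. Dynlrb2 and Ccdc153 were highest in PAMH F3 replicate 3 too, but lowest in CNTR replicate 3 (33.55 and 120.1 CPM). Foxj1 was highest in CNTR replicate 2 (141.9 CPM) and lowest in PAMH F3 replicate 1 (64.04 CPM). The part of the oviduct epithelium in the Alox15 and Hpgds values was not tested. The unadjusted edgeR p was 0.411 for Alox15 and 0.0888 for Hpgds.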
